A study of Mus musculus with 6 samples.

Results

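The liver pools examined here came from male 129/Sv mice that had taken a liquid diet with 4% ethanol for 4 months and from male 129/Sv mice given an isocaloric liquid diet with maltose dextran for the same time. The mice were 6 to 8 weeks old at the start, and all of them had first been kept on the control liquid diet. For each diet the RNA of 6 livers was combined in equal amounts into 1 pool. The alcohol pool and the control pool were labeled with opposite dyes and hybridized together on 2 whole-genome oligonucleotide arrays, with alcohol in Cy5 (red) on the first array and in Cy3 (green) on the second. The study took other mice in the same way after 1 month and after 2 months, 6 arrays in all, in order to follow liver transcripts over chronic alcohol intake.

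A probe entered the comparison when it was no control and gave a signal well above background in both pools on both 4-month arrays, which held for 33174 of the 41174 probes (80.6%). These probes carry 22804 gene names. The value of a probe is the log2 ratio of the alcohol signal over the control signal, averaged over both arrays, so that a log2 ratio of 1 is a 2-fold higher and -1 a 2-fold lower signal in the alcohol pool.

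The liver clears ethanol mainly by alcohol dehydrogenases followed by aldehyde dehydrogenases, and in part by the microsomal cytochrome P450 enzyme CYP2E1. Other P450 enzymes oxidize drugs, steroids and fatty acids, and many of their genes are switched on by the nuclear receptors CAR, PXR and PPAR-alpha, after which transferases attach glutathione, sulfate or glucuronic acid. In mice a large share of these genes is also expressed at different levels in male and female liver, a pattern governed by the rhythm of growth hormone release.

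Because the arrays of a dye swap carry the same RNA, they show how well a ratio could be measured again and not how mice vary. No test of the 4-month ratio was possible with 1 pool per diet, so that raised and lowered here name a size of at least 2-fold on average and nothing more. Precision is limited by having only these arrays. Of the 33174 probes, 91 were raised (0.274%) and 85 were lowered (0.256%), and 26 and 8 of them reached 4-fold. All 91 and all 85 had the same direction on both arrays. A difference of at least 2-fold on each array was seen for 58 raised probes (0.175%) and 52 lowered probes (0.157%). With the brightest probe of each gene name, 68 of the 22804 names were raised (0.298%) and 62 were lowered (0.272%). The average ratio had a standard deviation (SD) of 0.24 across probes, and 96.1% of probes lay between -0.5 and 0.5. Dividing the difference between the arrays by 2 gave an SD of 0.32, which was larger than that of the average. Among the names with the largest difference between arrays were Dph6, with 1.58 and -2.31, and Defb42, with 1.38 and -2.32. In the plot of both dye orientations the called probes lie at the upper right and lower left, some of them well off the diagonal, such as Cyp8b1, with -1.89 and -0.30.

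**Figure D1:**
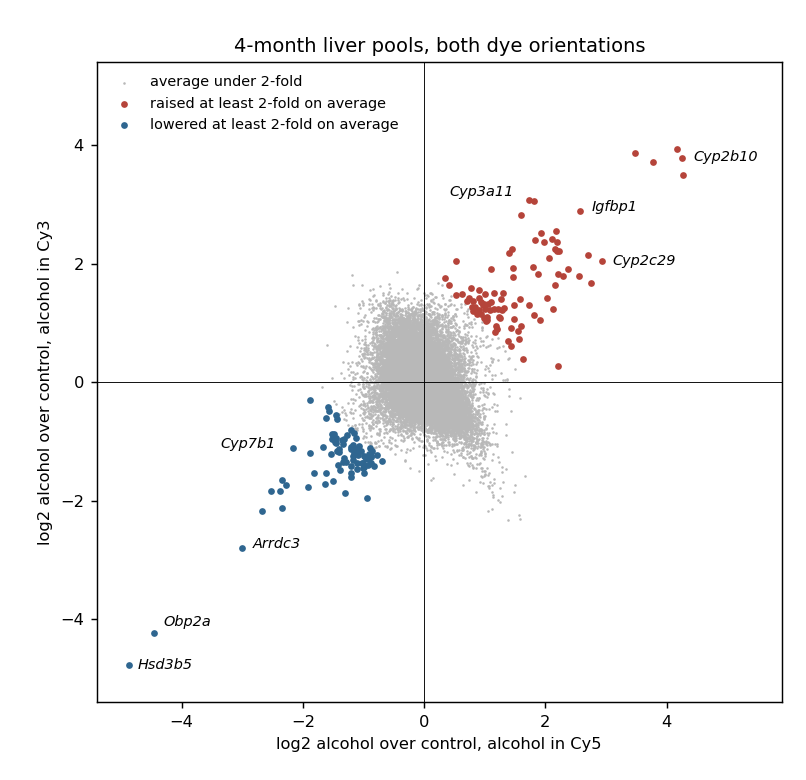
Each point is 1 of 33174 probes, with the log2 ratio of alcohol over control on the array with alcohol in Cy5 (horizontal axis) and on the array with alcohol in Cy3 (vertical axis). The 91 raised probes (red) lie at the upper right and the 85 lowered probes (blue) at the lower left, while the other probes (grey) are stretched from the upper left to the lower right.

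Cyp2b10, a P450 gene known as a main target of CAR, had the largest raised ratio when each gene was represented by its brightest probe. Its signal was 6855 in the alcohol pool and 359 in the control pool on the first array, and 7010 and 506 on the second. The average log2 ratio was 4.03, or 16.3-fold, and a second probe of Cyp2b10 gave 3.68. On each array the alcohol signal was thus far above the control signal, whichever dye carried it. The neighboring family members Cyp2b13 and Cyp2b9 were also raised, with 2.36 for Cyp2b13 (20948 against 4647 on the first array and 19801 against 3365 on the second) and 1.87 for Cyp2b9 (3179 against 920 and 2837 against 735). Probes of these genes did not give the same size. The dimmer probe of Cyp2b9 gave 3.88, with signals of 1577 against 81.6 and 1011 against 89.7, and the dimmer probe of Cyp2b13 gave 0.19, with 0.59 and -0.22 on the arrays. Near-identical family members can share a probe, and the part of this sharing in the ratios was not tested.

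The 250 bases before the start site of the 3 raised Cyp2b genes are shown because the genes lie in 1 cluster and were raised together (RefSeq, assembly GRCm38.p6). The windows are chr7:25897408-25897657 for Cyp2b10, chr7:26061245-26061494 for Cyp2b13 and chr7:26173159-26173408 for Cyp2b9, all on the plus strand and printed 5′ to 3′. Capitals would mark a match, on either strand, to the TATA box letters TATAAA, the insulin response letters CAAAACA, the forkhead factor letters TGTTTAC or the STAT factor letters TTCNNNGAA, and these windows hold none, which says only that those letters are not in them.
Cyp2b10: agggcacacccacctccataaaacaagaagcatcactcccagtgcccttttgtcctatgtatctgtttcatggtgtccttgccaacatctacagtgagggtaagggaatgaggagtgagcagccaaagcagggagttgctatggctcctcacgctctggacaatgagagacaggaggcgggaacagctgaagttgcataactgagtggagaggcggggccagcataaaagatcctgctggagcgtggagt
Cyp2b13: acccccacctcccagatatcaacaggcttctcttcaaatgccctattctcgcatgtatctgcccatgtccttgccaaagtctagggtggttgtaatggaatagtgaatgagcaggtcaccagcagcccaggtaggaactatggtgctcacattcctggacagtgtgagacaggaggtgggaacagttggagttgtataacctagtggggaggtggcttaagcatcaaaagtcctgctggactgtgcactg
Cyp2b9: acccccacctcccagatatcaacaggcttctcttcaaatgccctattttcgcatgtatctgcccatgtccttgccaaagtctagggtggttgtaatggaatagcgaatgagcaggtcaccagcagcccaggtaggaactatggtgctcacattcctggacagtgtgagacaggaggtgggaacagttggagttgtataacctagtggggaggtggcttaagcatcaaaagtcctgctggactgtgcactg
Cyp2b13 and Cyp2b9 have the same base at 248 of 250 positions (99.2%). Each of them shares 187 of 238 aligned bases (78.6%) with Cyp2b10, with 24 gap columns. Over the 32851 mouse promoters with a window of this length, TATAAA was found in 12.4%, CAAAACA in 5.56%, TGTTTAC in 3.17% and TTCNNNGAA in 7.02%.

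Many of the raised names were P450 genes. Of the 33 genes of families 1 and 2 that could be measured, 10 were raised and 0 were lowered, with a median log2 ratio of 0.12 beside -0.01 over all 22804 names, of which 10836 (47.5%) lay above 0, 0.298% were raised and 0.272% lowered. Of 18 genes of families 3 and 4, 6 were raised and 0 were lowered, with a median of 0.10. Most members thus stayed under 2-fold, and the raised ones belonged to the subfamilies 2a, 2b, 2c, 3a and 4a.

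In the Cyp2c subfamily, whose enzymes oxidize arachidonic acid and drugs, Cyp2c29 had signals of 61751 against 8120 on the first array and 109500 against 26547 on the second. Its log2 ratio averaged 2.49, with 2.93 and 2.04 on the arrays. Cyp2c38 averaged 2.12 on its brighter probe and 0.94 on the dimmer one, Cyp2c39 1.84, Cyp2c37 1.25 and Cyp2c54 1.12. Cyp2c70 stayed under 2-fold at 0.23, and Cyp2c40 lay below 0, at -0.63. In the Cyp2a subfamily, which holds steroid and coumarin hydroxylases, Cyp2a5 averaged 2.22 (78069 against 11618 and 110510 against 34407) and Cyp2a4 1.19 (49142 against 22150 and 59109 against 25081). Cyp2a12 gave 0.61.

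In the Cyp3a subfamily, the classical targets of PXR, Cyp3a11 had signals of 52538 against 15875 and 83316 against 9845, and its log2 ratio was 1.73 on the first array, 3.08 on the second and 2.40 on average. Cyp3a16 averaged 2.44, Cyp3a44 2.28 and Cyp3a41a 2.08, and Cyp3a13 and Cyp3a25 gave 0.54 and 0.02. The spread between the arrays was wide for Cyp3a11 and Cyp3a16 and narrow for Cyp3a41a, which gave 2.07 and 2.09. Fatty acid hydroxylases of the Cyp4a subfamily, known targets of PPAR-alpha, were raised less, with 1.16 for Cyp4a14 (53617 against 22521 and 57133 against 27064) and 1.18 for Cyp4a31. Cyp4a10 gave 0.68 on its brightest probe, while 2 dimmer probes gave 2.21 and 1.23. The receptor genes themselves stayed under 2-fold, with 0.01 for Nr1i3 (CAR), 0.29 for Nr1i2 (PXR) and -0.47 for Ppara.

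**Figure D2:**
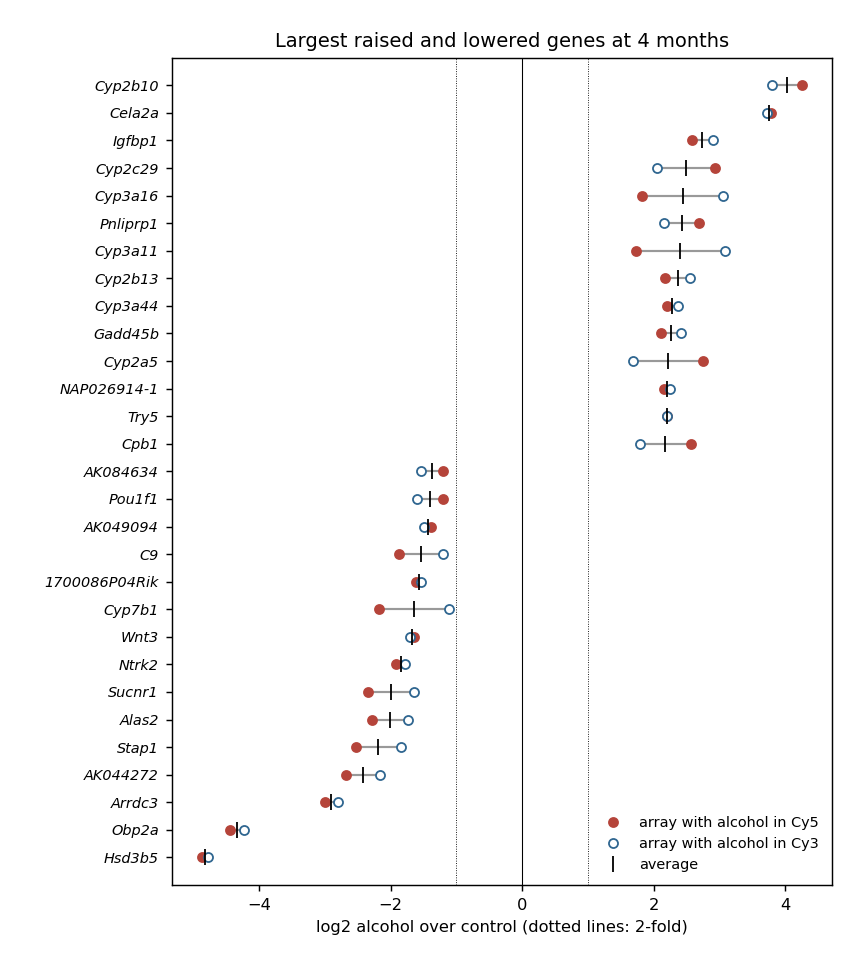
Log2 ratio of alcohol over control (horizontal axis) of 14 of the 15 raised and of the 15 lowered gene names with the largest averages among those at least 2-fold on each array, with a filled point for the array with alcohol in Cy5, an open point for alcohol in Cy3 and a tick for the average. Cyp2b10 at 4.03 and Hsd3b5 at -4.83 stand at the ends, and Cyp3a11 and Cyp7b1 are among the names whose arrays lie far apart.

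Among other enzymes that oxidize foreign compounds, Por, the reductase that feeds electrons to P450 enzymes, gave 0.37 and the aldehyde oxidase Aox3 -0.96. Among 22 glucuronosyl- and sulfotransferases, Sult3a1, an amine sulfotransferase, was the only member raised, with 3442 against 667 and 2916 against 774 and an average of 2.14. Ugt1a1, which conjugates bilirubin, gave 0.90 and Sult1b1 -0.91. Of 22 glutathione S-transferases, 2 were raised, Gstt3 at 1.15 and Gstm4 at 1.08, and 17 lay above 0, with a median of 0.21.

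The genes of ethanol oxidation itself had small ratios. Of 14 measured, 0 were raised and Adh4, an alcohol dehydrogenase that also handles retinol, was lowered, with signals of 4992 against 13875 and 3417 against 6877 and a log2 ratio of -1.24. Adh1, the main hepatic alcohol dehydrogenase, gave 0.16 and Aldh2, the mitochondrial enzyme that clears acetaldehyde, -0.02. Cyp2e1 averaged 0.19, but its arrays gave 0.995 (65236 against 32725) and -0.62 (29436 against 45115), so that its direction differed between the dye orientations.

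Igfbp1 encodes a secreted protein that binds insulin-like growth factors, and insulin is known to repress it in liver. Its signal was 33891 in the alcohol pool and 5677 in the control pool on the first array, and 41840 and 5627 on the second. The average log2 ratio was 2.74, or 6.66-fold, and the arrays gave 2.58 and 2.89. Igfbp1 was the only gene raised among 21 of the growth hormone and insulin-like growth factor axis, whose median was 0.01. Igf1 gave -0.01, Igfbp2 0.25, Igfbp3 -0.13 and Igfals 0.05. The growth hormone receptor Ghr averaged -0.63, with -1.19 and -0.07 on the arrays.

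The 250 bases before the start site of Igfbp1 (chr11:7197537-7197786, plus strand, GRCm38.p6, RefSeq) are shown because they hold the letters CAAAACA, the start of the insulin response sequence described for this promoter. Capitals mark the match, which lies at bases -108 to -102 before the start.
Igfbp1: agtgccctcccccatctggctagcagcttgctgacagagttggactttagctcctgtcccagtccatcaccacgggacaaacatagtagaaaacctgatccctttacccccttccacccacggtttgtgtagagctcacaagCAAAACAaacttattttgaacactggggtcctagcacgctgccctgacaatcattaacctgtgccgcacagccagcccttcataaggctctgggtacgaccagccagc
The match is a description of the sequence and not a site measured here.

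Genes of growth arrest and cell stress were raised in part. Gadd45b, which encodes a small stress protein that binds cell cycle and kinase partners, had signals of 4600 against 1063 and 4026 against 753 on its brighter probe, with an average log2 ratio of 2.27. Its dimmer probe gave 1997 against 110 and 1199 against 78.4, an average of 4.06. Both probes and both arrays were thus above 2-fold, and the size depended on the probe. Ddit4, an inhibitor of the mTOR pathway, was raised at 1.15 and Gadd45g at 1.04, and 0 of the 22 genes of this list were lowered. Fgf21, a hormone released by stressed or fasted liver, gave 0.78, Ddit3 (CHOP) 0.20, Atf4 0.21, Cdkn1a (p21) 0.39 and Phlda3, a p53 target, -0.91. Of 18 endoplasmic reticulum chaperone genes 0 were raised, 0 were lowered and 3 lay above 0, with list medians of -0.32 and 0.13 on the arrays and Hspa5 (BiP) at -0.28 on average. Among 19 immediate early genes only Dusp1, a phosphatase of MAP kinases, was raised, at 1.27, while Egr1 gave -0.76.

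Genes whose control probe signal was too dim give a bound in place of a ratio. For 78 probes the alcohol pool was well above background on both arrays and the control pool on neither, and 36 of these belonged to genes with no brighter probe, beside 2 probes and 0 such genes for the control pool. The bound compares the alcohol signal with the lowest signal well above background on the array or the dim signal itself, whichever is higher, with each channel taken by itself after loess and Aquantile scaling, a measure that a dye bias can move. Rgs1, a regulator of G protein signaling in leukocytes, had a bound of 4.09-fold toward the alcohol pool on this scale. Its normalized log2 means were 6.74 against 4.58. Its signals of 125 against 33.3 and 134 against 26.0 gave log2 ratios of 1.91 and 2.37 on the arrays. The first of these is below the bound, which is 2.03 in log2, so that 4.09-fold is no firm minimum. Jun, the immediate early transcription factor, was at least 2.88-fold higher, with 98.4 against 27.2 and 84.5 against 26.3 and means of 6.22 against 4.43. Only these 2 of the 36 genes had a bound of at least 2-fold.

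The most lowered gene was Hsd3b5, a steroid reductase of the hydroxysteroid dehydrogenase family that male mouse liver expresses strongly. Its signal was 204 in the alcohol pool and 5972 in the control pool on the first array, and 116 and 3191 on the second. The log2 ratio averaged -4.83, a 28.4-fold lower signal, with -4.87 and -4.78 on the arrays. The other 18 steroid dehydrogenase and reductase genes measured stayed under 2-fold on their brightest probe. Hsd3b4 gave -0.95, Hsd3b3 -0.75, Hsd3b6 -0.70 and Hsd3b2 -0.62, and a dimmer probe of Hsd3b3 and of Hsd3b2 passed 2-fold at -1.15 and -1.34. Hsd11b1, which activates glucocorticoids, gave 0.22.

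Obp2a, an odorant-binding lipocalin, was the next lowered gene, with signals of 128 against 2800 and 92.7 against 1744 and a log2 ratio of -4.34, a 20.3-fold lower signal. The 250 bases before the start sites of Hsd3b5 (chr3:98645535-98645784, minus strand) and Obp2a (chr2:25699824-25700073, plus strand) are shown because these 2 genes had the largest lowered ratios (GRCm38.p6, RefSeq, printed 5′ to 3′ along the gene). Capitals mark a TATAAA at bases -61 to -56 of Obp2a, and none of the 4 motifs is in the window of Hsd3b5.
Hsd3b5: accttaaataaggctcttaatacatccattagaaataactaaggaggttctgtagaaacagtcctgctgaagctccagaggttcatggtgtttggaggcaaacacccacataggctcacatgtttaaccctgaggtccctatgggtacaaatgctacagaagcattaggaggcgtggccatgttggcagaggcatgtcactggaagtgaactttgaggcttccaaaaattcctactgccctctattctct
Obp2a: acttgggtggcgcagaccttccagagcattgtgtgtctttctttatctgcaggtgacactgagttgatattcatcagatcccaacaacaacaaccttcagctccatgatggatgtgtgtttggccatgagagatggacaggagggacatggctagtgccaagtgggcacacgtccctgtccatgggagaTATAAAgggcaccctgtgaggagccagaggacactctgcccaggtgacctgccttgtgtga

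Of the genes that male mouse liver expresses more strongly than female liver, 15 were measured, with 1 above 0 and a median log2 ratio of -0.33. The same probes had medians of -0.97 at 1 month and -0.30 at 2 months, without the background criterion at those times. Over all names 47.5% lay above 0, 0.298% were raised and 0.272% were lowered. Of these 15 genes 0 were raised and 5 were lowered. Beside Hsd3b5 these were Cyp7b1, the oxysterol hydroxylase, at -1.64 (7421 against 33380 and 6390 against 13774), the complement gene C6 at -1.23, the fatty acid elongase Elovl3 at -1.20 and the organic anion transporter Slco1a1 at -1.11. For Cyp7b1 the arrays gave -2.17 and -1.11, and for Slco1a1 -1.61 and -0.61. Of the major urinary protein genes, which encode pheromone carriers, Mup5 gave -1.11, Mup4 -1.002 and Mup1 -0.97. Mup3 gave -0.22 on its brighter probe and -2.23 on the dimmer one (12063 against 61049 and 6924 against 30254). Cyp4a12a, a male-specific fatty acid hydroxylase, gave -0.13 and -2.11 in the same order. Such probes of near-identical Mup and Cyp4a genes may read more than 1 gene.

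Genes that female mouse liver expresses more strongly showed 11 raised and 2 lowered among 31 measured, with 23 above 0 and a median of 0.61. Over all names 0.298% were raised, 0.272% were lowered and 47.5% lay above 0. The same probes of the list had medians of 0.38 at 1 month and 0.21 at 2 months, without the background criterion at those times. The raised members included Cyp2b10, Cyp3a16, Cyp2b13, Cyp3a44, Sult3a1, Cyp3a41a, Cyp2b9, Cyp2c39, Cyp2a4 and Abcd2, the last a peroxisomal fatty acid transporter at 1.70. The P450 genes among them also stand in the P450 lists, so that the lists are not separate observations. Ntrk2, a neurotrophin receptor, and Hamp2, a hepcidin gene, were lowered, at -1.84 and -1.29. Other probes of Ntrk2 gave -1.67 and -0.08. Members that stayed under 2-fold include Cux2, a female-specific liver factor, at 0.75, Tox at 0.72, Prom1 at 0.20, A1bg at -0.28 and Cyp2c40 at -0.63.

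**Figure D3:**
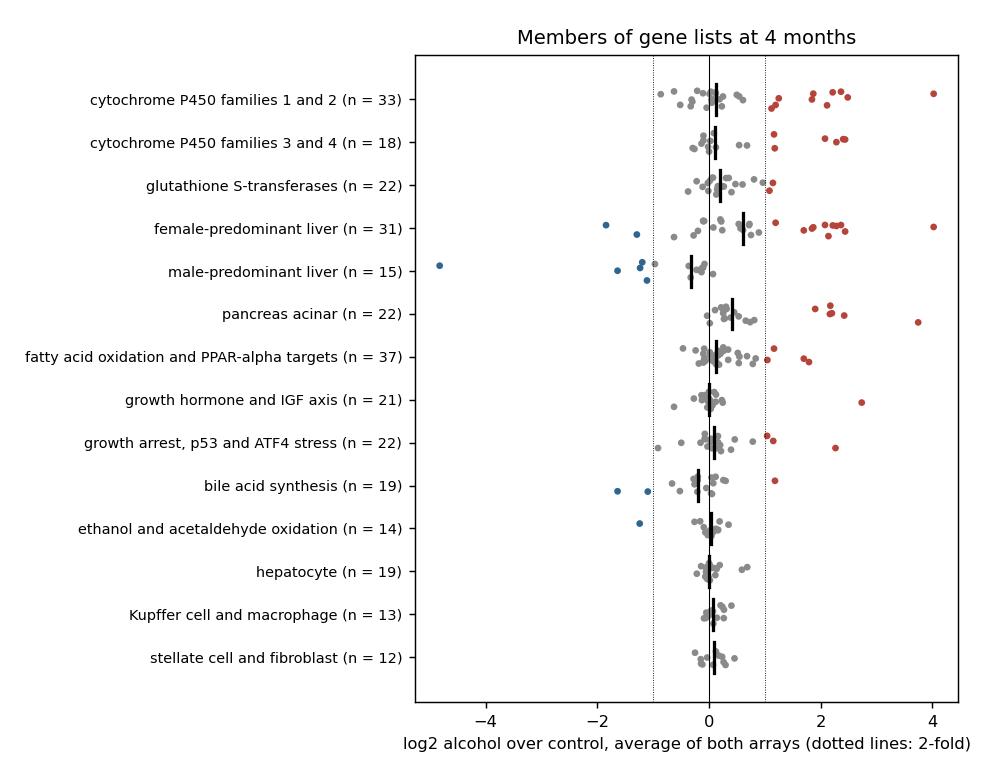
Each point is the average log2 ratio of alcohol over control (horizontal axis) of the brightest probe of a gene in 14 gene lists, with n the genes measured, red for raised and blue for lowered at least 2-fold, and a black bar for the median of the list. The female-predominant list has its median at 0.61 and the acinar list at 0.42, the male-predominant list at -0.33, and the hepatocyte list at 0.01 with no member past 2-fold.

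In bile acid synthesis, 2 of 19 genes were lowered and 1 was raised. Cyp7b1 is given above. Cyp8b1, the sterol hydroxylase that makes cholic acid, averaged -1.10, with -1.89 (9638 against 35723) and -0.30 (10005 against 12352) on the arrays, so that only 1 dye orientation put it past 2-fold. Cyp39a1, an oxysterol hydroxylase, was raised at 1.18, with 0.77 and 1.59 on the arrays and 0.83 on a dimmer probe. Cyp7a1, the rate-limiting enzyme of the pathway, gave -0.24. The median of this list was -0.20, with -0.39 and 0.17 on the arrays.

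Other lowered genes were of several kinds. Arrdc3, an arrestin-like adaptor, had signals of 215 against 1723 and 142 against 995 and a log2 ratio of -2.90. Alas2, the erythroid enzyme that starts heme synthesis, gave 2185 against 10583 and 1589 against 5270, an average of -2.003. Other erythroid markers did not follow Alas2, with 0.61 for Hba-a1 and -0.01 for Slc4a1, and Alas1, the liver form of the enzyme, gave 0.36. Sucnr1, the succinate receptor, averaged -1.997 and Stap1, a signaling adaptor, -2.18 on its brighter probe and -0.39 on the other. Of 31 complement and coagulation genes, C9 at -1.54 and C6 at -1.23 were lowered, both encoding terminal complement components, and C8a, C8b and C8g gave -0.15, -0.08 and -0.39. Car3, carbonic anhydrase III, had signals of 40537 against 83357 and 21341 against 47486, with -1.10. Hamp2 gave 8465 against 22501 and 5937 against 13409, while Hamp, the iron hormone itself, gave 0.32. Foxa2, a liver transcription factor, averaged -1.01 and was the only one of 27 nuclear receptor and liver factor genes to be lowered, with 0 raised.

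Of 37 genes of fatty acid oxidation and PPAR-alpha targets, 4 were raised, beside 0.298% of all names, namely Vnn1 (a pantetheinase) at 1.79, Abcd2 at 1.70, Cyp4a14 at 1.16 and Acot1 (an acyl-CoA thioesterase) at 1.05. The median of 0.13 came from 0.00 and 0.48 on the arrays, and Cpt1a, the gate of mitochondrial fatty acid uptake, gave -0.24. Of 20 fatty acid synthesis genes, Elovl3 alone was lowered, and Fasn gave 0.15, Scd1 -0.11 and Elovl5 -0.88. Scd2, a desaturase outside that list, was raised at 1.40. Of 25 cholesterol genes 0 were called, with -0.76 for Mvd, a mevalonate pathway enzyme. Of 20 lipid droplet genes 0 were called, and Plin2, which coats lipid droplets, averaged -0.49 with -1.06 and 0.08 on the arrays. Of 24 genes of gluconeogenesis and fasting 0 were called, with 17 above 0, list medians of -0.23 and 0.60 on the arrays, Pdk4 at 0.84, G6pc at 0.73 and Pck1 at 0.47.

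Among acute phase genes, Mt1, a metallothionein that binds zinc, was raised at 1.496 on its brighter probe (77613 against 25825 and 84940 against 32076) and 1.85 on the other, and Mt2 gave 0.49. The lipocalin Lcn2 was raised at 1.04, whereas the serum amyloid genes Saa3 and Saa2 gave -0.97 and -0.77. Saa1 gave -0.25 on its brighter probe and was lowered on the dimmer one, at -1.001. With the brightest probe of each gene, the 28 acute phase genes held 2 raised and 0 lowered, beside 0.298% and 0.272% of all names. Of 26 cytokine and chemokine genes Ccl6 alone was raised, at 1.02, with Tnf and Il1b both at -0.18. Of 28 NRF2 and glutathione synthesis genes 0 were called and 22 lay above 0, with list medians of -0.14 and 0.28 on the arrays, Nqo1 at 0.79 and Hmox1 at 0.63. Of 28 interferon genes, 20 clock genes, 23 methionine cycle genes, 37 respiratory chain genes, 18 apolipoprotein genes and 21 urea cycle and zonation genes, 0 were raised and 0 were lowered on the brightest probe. The clock gene Nr1d1 gave -0.62 on that probe and was lowered on a dimmer one, at -1.07. Mcm6, a replication helicase subunit, was the only one of 24 cell cycle genes to be raised, at 1.01.

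Digestive enzyme genes of the pancreatic acinar cell formed a further raised group. Of 24 such genes on the array 22 could be measured, 6 of them were raised, 0 were lowered and 21 lay above 0, with a median of 0.42. Over all names 0.298% were raised, 0.272% were lowered and 47.5% lay above 0, with a median of -0.01. Cela2a, a chymotrypsin-like elastase, had signals of 1516 against 111 and 1166 against 88.6 and a log2 ratio of 3.75, or 13.4-fold, beside -0.30 and -0.52 at 1 and 2 months, where its signals were not all well above background. The other raised members were Pnliprp1, a lipase-related protein, at 2.42 (683 against 105 and 484 against 109), Try5, a trypsin, at 2.20 (3621 against 791 and 2683 against 580), the carboxypeptidase Cpb1 at 2.17, and Reg2 and Reg1, secreted regenerating islet proteins, at 2.17 and 1.90. For each of these 6 genes the alcohol pool exceeded the control pool on both arrays. Among the members under 2-fold, Ctrb1 gave 0.25, Clps 0.26, Cel 0.27 and Rnase1 -0.03, with 1.72 on the dimmer probe of Rnase1. The signals of the whole list summed to 105100 in the alcohol pool and 83420 in the control pool. Amy2a5 was too dim to be measured in both pools, and Reg3d was measured in the alcohol pool alone. Of 7 endocrine pancreas genes 0 were called, with 0.02 for Ins2 and 0.22 for Gcg. Where these transcripts came from was not tested.

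The markers of liver cells did not differ by 2-fold. All 19 hepatocyte markers on the array could be measured, their median was 0.01, and their signals summed to 831100 in the alcohol pool and 763700 in the control pool, so that both pools carried the transcripts of liver. Alb gave 0.59, although its signal differed between the arrays by far more than between the pools (1235 against 707 on the first and 48638 against 37568 on the second). Of 13 Kupffer cell and macrophage, 8 neutrophil, 8 T and NK cell, 7 B cell, 10 endothelial, 12 stellate cell and fibroblast, 7 cholangiocyte and 7 adipocyte markers measured, 0 were raised and 0 were lowered, with list medians from -0.06 to 0.15. Col1a1, the collagen of activated stellate cells, gave 0.30. In pooled tissue RNA, a change in the number of cells and a change in RNA per cell cannot be told apart.

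The 2-fold line separated values that hardly differ. With 1 probe per name, Shcbp1 at 1.00, Ankrd44 at 1.01 and Mcm6 at 1.01 lay just inside, and Cyp26a1 at 0.997, Slc16a5 at 0.989 and C030047K22Rik at 0.984 just outside. On the lowered side Mup4 at -1.002, Fchsd2 at -1.003 and Cst9 at -1.01 lay just inside, and Rpap3 at -0.995, TC1448287 at -0.991 and Adgrv1 at -0.975 just outside. A dimmer probe of Adgrv1 was lowered, at -1.59.

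The 4-month ratios were then set beside those of 1 and 2 months, which came from other mice. Of the 91 probes raised at 4 months, 70 were well above background at 1 month, where 11 were raised 2-fold, and 79 at 2 months, where 24 were. Of the 85 lowered probes, 46 could be measured at 1 month, where 7 were lowered 2-fold and 2 were raised 2-fold, and 83 at 2 months, where 10 were lowered. The share of all probes that passed 2-fold at 1 or 2 months is not given here, so these counts have no background beside them. Over the probes measured at each time, the raised probes had median log2 ratios of 0.34, 0.59 and 1.28 at 1, 2 and 4 months and the lowered probes -0.20, -0.71 and -1.20. The value at 4 months is fixed by the choice of the probes. Slide and month cannot be told apart here, since the 1-month arrays share a slide that holds neither later month.

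The course differed among the leading genes. Cyp2b10 was already high, at 3.27 and 2.77 at 1 and 2 months, as were Cyp2b13 at 3.40 and 2.88 and Cyp7b1 on the lowered side at -1.55 and -1.42. Cyp4a14 was higher earlier, at 2.44 and 1.81. Igfbp1 gave -0.23 at 1 month and 1.97 at 2 months, and Gadd45b 0.20 and 1.51. Another set was not raised at either earlier time, with -0.47 and -0.14 for Sult3a1 and -0.10 and 0.02 for Try5. Hsd3b5 was low throughout, at -2.93 and -2.04, and Arrdc3 gave -0.49 and -1.31.

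**Figure D4:**
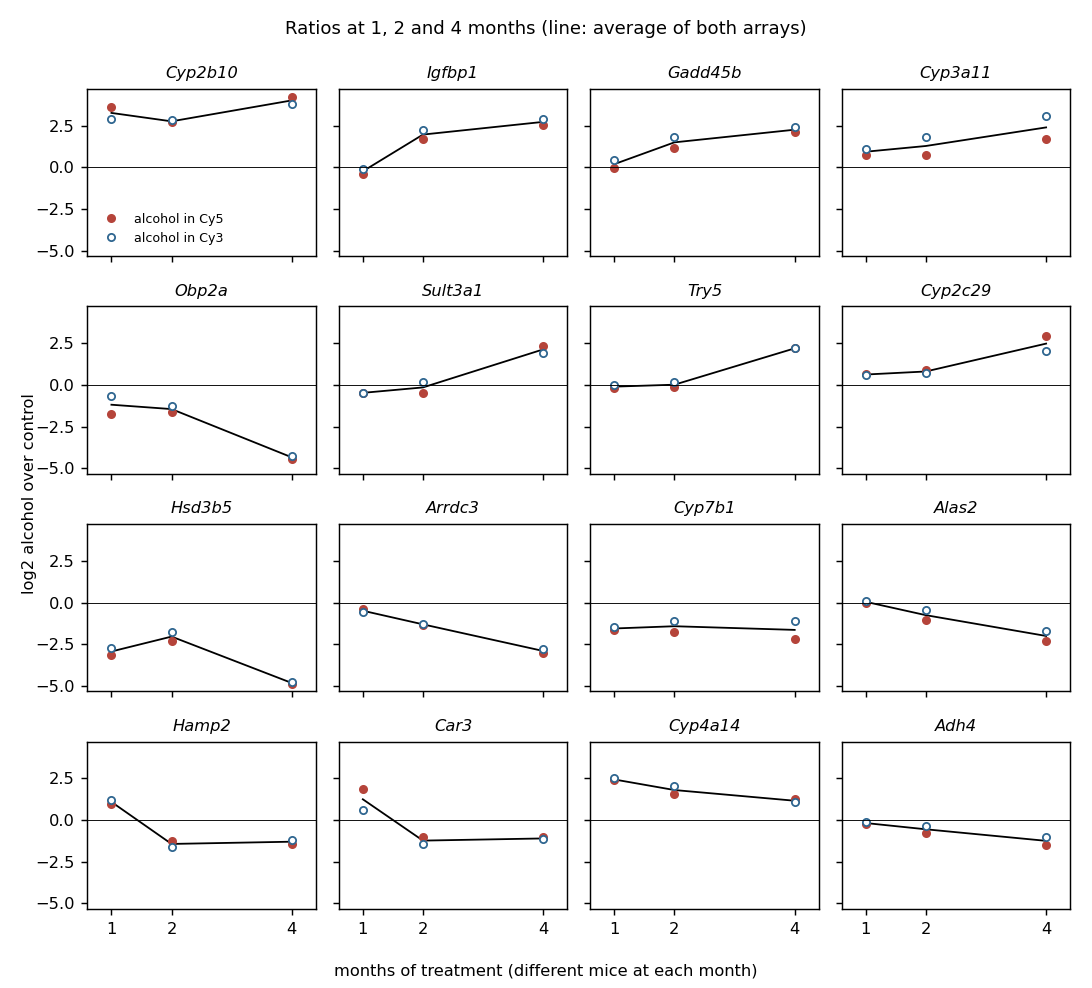
Log2 ratio of alcohol over control (vertical axis) of 16 genes at 1, 2 and 4 months of treatment (horizontal axis), with a filled point for the array with alcohol in Cy5, an open point for alcohol in Cy3 and a line through the averages. Sult3a1 and Try5 lie near or below 0 until 2 months and at 2.14 and 2.20 on average at 4 months, while Hamp2 and Car3 are above 0 at 1 month and below 0 later.

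The only test the design allowed for 4 months asked whether its ratio differed from the mean of the earlier months, with limma on the 3 monthly averages and 1 residual degree of freedom. The 4-month arm is a single value, and the spread comes from the difference between 1 and 2 months, taken as replicates although they are different times, mice and slides, and from moderation across probes. The p-values therefore do not measure how the 4-month ratio would vary among mice. Of 27900 probes that met the background criterion in each channel of all 6 arrays, 3 passed at a Benjamini-Hochberg adjusted p of 0.05 (0.0108%). Among them, Sult3a1 was higher by 2.45 on the log2 scale (standard error, SE, 0.18) and Try5 by 2.24 (SE 0.15), each with a limma adjusted p of 0.0316. In size, 35 probes were at least 2-fold higher at 4 months than earlier (0.125%) and 17 at least 2-fold lower (0.0609%). Those that missed the limma threshold include Cyp2c29, at 1.76 (adjusted p = 0.0646), Cyp8b1, at -1.50 (adjusted p = 0.0925), Hsd3b5, at -2.34 (adjusted p = 0.292), Igfbp1, at 1.86 (adjusted p = 0.974), and Cyp2b10, at 1.01 (adjusted p = 0.588). Without the moderation of variances across probes, 0 passed and 1260 had an unadjusted p under 0.05, and 0 of 37922 probes passed limma with a filter on any channel, where the smallest adjusted p was 0.298.

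A share of the lowered probes stood apart in level. Of the 33174 probes, 742 (2.24%) were at least 4-fold brighter in both pools at 2 months than at 1 month. These hold 31 of the 85 lowered probes and 0 of the 91 raised ones, and 4.18% of them were lowered beside 0.167% of the other probes. Apart from Obp2a the 30 probes lay between -1.68 and -1.003 at 4 months and between -0.91 and -0.56 at 2 months, and 5 of them were well above background at 1 month. They include genes that are not typical of liver, such as Wnt3, a secreted signaling protein, at -1.68, Pou1f1, a pituitary transcription factor, at -1.40, Tbx20, a heart transcription factor, at -1.32 and Taf7l, a germ cell factor, at -1.13. Other probes of Tbx20, outside this set, gave -0.12 and 0.31, and another of Taf7l gave 0.06. The median level of the 31 probes in the control pools, as log2 signal minus the 75th percentile of the channel, went from -4.44 to 0.74 and then -0.44 over the times studied. In the alcohol pools it was -4.67, 0.03 and -1.63. The step from 1 to 2 months is fixed by the choice of these probes, slide and month cannot be told apart for it, and the part of their level in the lowered count was not tested. Without these probes 54 were lowered.

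**Figure D5:**
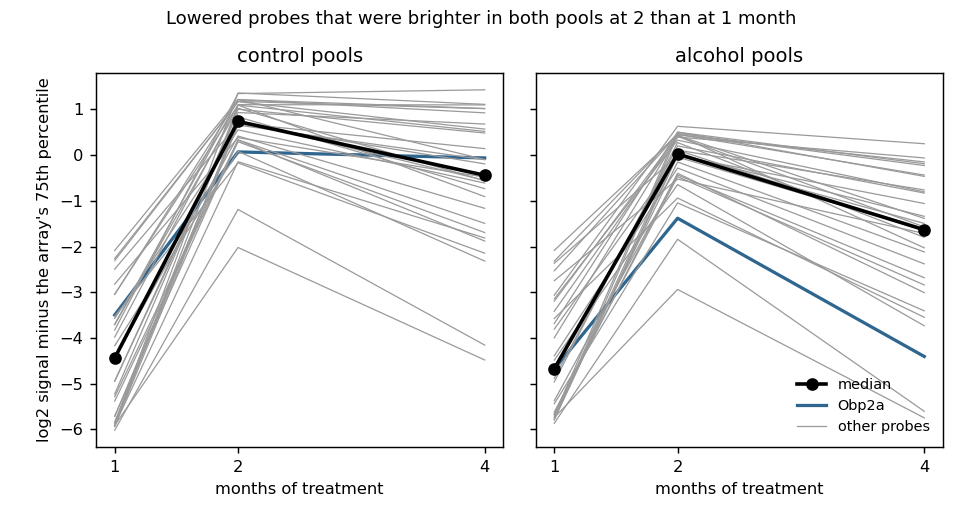
Level of the 31 lowered probes that were at least 4-fold brighter in both pools at 2 months than at 1 month, as log2 signal minus the 75th percentile of the array's channel (vertical axis), in the control pools (left) and the alcohol pools (right) against months of treatment. The median (black) goes from -4.44 to 0.74 and -0.44 in control and from -4.67 to 0.03 and -1.63 in alcohol, and Obp2a (blue) lies at -4.40 in the alcohol pool and at -0.06 in the control pool of 4 months.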

How the data were processed

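Liver RNA of 6 mice per diet was pooled, and both 4-month pools were hybridized on a dye-swap pair of two-color Agilent arrays. The authors deposited scanner output of Feature Extraction 9.1.1.1, in which signal intensities are background-corrected and dye-normalized and each spot has a log10 ratio. A table of ratios that the authors deposited beside it served as an alternative. From the intensities, ratios of alcohol over control were taken as log2, averaged over spots of a probe and over both arrays. 0 spots carried an outlier flag, 0 probes were saturated at 4 months, and 82.3% to 90.3% of the 43379 spots per channel were well above background. Errors and p-values that the scanner software gives for a spot are technical and were not used as tests. The pathway and clustering analyses of the study were not repeated.

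Probes were named through RefSeq accessions (22951), symbols (6659) or synonyms (3109) of GRCm38.p6, and 8455 kept the name in the files. The 48 gene lists were written from general knowledge, and members and lists were chosen with earlier results of these data known. Named genes are the 15 raised and 15 lowered names with the largest average among those at least 2-fold on each array, every list member at least 2-fold and up to 4 other members per list, cell markers, genes the study names, bounds of dim genes and the names with the largest difference between arrays. Other list members and second probes were named after their values were seen, to give context. Some genes are not reported here.

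The difference between months used limma 3.58.1 in R 4.3.3, with Benjamini-Hochberg adjustment over 27900 probes. On simulated data with 200 changed probes in 10 draws, months 1 and 2 were drawn around the same mean. There log2 shifts of 1, 2 and 3 were recovered for 44.5%, 99.7% and 100% of probes. Unchanged probes formed 12.4%, 8.83% and 8.76% of the calls, above the nominal level. In the real data months 1 and 2 can differ for a gene, so these shares do not carry over. Hsd3b5, at -2.34, and Arrdc3, at -2.01, missed the threshold. Ratios, lists and plots were made in Python 3.11.15 with matplotlib 3.10.9, scipy 1.17.1, pandas 2.3.3 and numpy 2.4.6. Alternatives tried were normexp correction with loess, an error-weighted average, median centring, other fold thresholds and filters, names in place of probes, and leaving out each array or month.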

Additional observations from a re-analysis of the deposited data

Results flagged for a closer look

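Car3 and Hamp2 were lowered at 4 months, with log2 ratios of -1.10 and -1.29, but raised at 1 month, with 1.25 and 1.09, each in the same direction on both arrays of its month. A second Car3 probe gave -1.38 at 4 months and 0.37, under 2-fold, at 1 month. This difference between months was not tested for the pair of times, and the slide changed between 1 month and the later months as well. Against the mean of 1 and 2 months, Car3 gave -1.11 and Hamp2 -1.13, each with a limma adjusted p of 1.

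Try5 and Sult3a1 were higher at 4 months than the mean of the earlier months by 2.24 and 2.45 on the log2 scale (limma adjusted p = 0.0316 each), with both 4-month arrays above 0. The 4-month arm is 1 value and months 1 and 2 serve as replicates in this test, so that it does not show a difference beyond the spread among mice. Without moderation, or with a filter on any channel (smallest adjusted p = 0.298), 0 probes passed.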

How the results depend on the processing

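No paired analysis was possible because both arrays of each month hold 1 pair of RNA pools and no independent replicates share a number across the diets. For alcohol over control at 4 months, a single array in place of the average gave 187 to 666 raised, 200 to 329 lowered and 387 to 995 called probes, beside 91, 85 and 176. A threshold of 1.5-fold gave 436, 389 and 825, one of 3-fold 35, 15 and 50, at least 2-fold on each array 58, 52 and 110, and no filter on dim probes 184, 150 and 334. After normexp 73 were raised and 66 lowered, and error weighting (92 and 76), median centring (95 and 77) and the deposited table (91 and 84) stayed within 1.5 times. Chosen after seeing the data, leaving out the probes that were brighter at 2 months gave 54 lowered, and leaving out acinar genes gave 83 raised. None of 637 values of the 91 named called genes reversed under the alternatives, and 7 of the 91 fell below 2-fold after normexp. For the single arrays the lack of reversals was fixed beforehand, because every called probe had the same direction on both arrays. Of 336 list medians, 54 took the other sign, 36 of them on a single array. The limma test of the difference between months made 12 calls with normexp, 0 with a filter on any channel and 0 without moderation, in place of 3. Leaving out 1 of the earlier months, 34 to 73 probes were at least 2-fold higher at 4 months and 22 to 64 lower, beside 35 and 17. Single arrays were not left out for these counts. The cause of these differences was not tested.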
